A study of Mus musculus with 52 samples.

Results

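Genes of the endoplasmic reticulum (ER) stress response were followed across primary mouse osteosarcomas of 3 p53 genotypes, 10 in all: Atf6, Xbp1, Atf4, Ddit3, Hspa5, Hsp90b1, Sdf2l1, Dnajb9, Herpud1 and Edem1. They were taken by name from the known response, 10 of the 20730 genes in the count table, and all 10 were measured and passed the filter on low counts. The list was not chosen by the values of each gene, but it was drawn up because of the measured level of Dnajb9, which had been lower in p53R172H/fl tumours, and the question was whether the other 9 genes followed it. The levels of Dnajb9 in comparisons with p53R172H/fl are therefore given as a description, with no test.

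The ER folds secreted and membrane proteins, and a tumour of bone-forming cells secretes large amounts of collagen. When unfolded protein builds up there, 3 membrane sensors signal to the nucleus. IRE1 (gene Ern1) splices the messenger RNA of Xbp1 into the form that encodes an active transcription factor. PERK (gene Eif2ak3) slows translation and favours synthesis of ATF4, which in turn switches on Ddit3, the gene of the factor CHOP. ATF6 is cut in the Golgi and its freed end enters the nucleus. Their targets include chaperones that hold and fold proteins, and the machinery that carries failed proteins out of the ER for destruction, called ER-associated degradation. The splicing of Xbp1, the cutting of ATF6 and the translation of ATF4 are not seen in counts per gene, so the values below are messenger RNA levels only.

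The ER stress response element (ERSE), bound by ATF6 and XBP1 together with NF-Y, is among the DNA motifs through which these genes are known to be switched on. RefSeq promoters of GRCm38.p6, 250 bases before and 50 after each start, held an entry for 9 of the 10 genes. The following stretches are shown because they carry such motifs in 3 of the genes. The last is shown because it holds CCACG, the only searched sequence found in Dnajb9. CCAAT and ATTGG were not searched for on their own. A further CCACG of Dnajb9, at chr12:44210067-44210095, is not printed. All are written 5′ to 3′ on the gene's own strand, with the motif bases in capitals.
Hspa5, ERSE, chr2:34772020-34772048, plus strand: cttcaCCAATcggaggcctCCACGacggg
Hsp90b1, ERSE, chr10:86705633-86705661, minus strand: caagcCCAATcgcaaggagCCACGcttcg
Hsp90b1, reversed ERSE, chr10:86705528-86705556, minus strand: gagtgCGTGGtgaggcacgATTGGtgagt
Herpud1, ERSE-II, chr8:94386368-94386396, plus strand: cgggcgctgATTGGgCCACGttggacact
Herpud1, ATF4 site, chr8:94386307-94386335, plus strand: ccacggcgggTTGCATCAgcccgcacccc
Hspa5, XBP1 site core, chr2:34771922-34771950, plus strand: gggcgtagcaaTGACGTGagttgcggagg
Dnajb9, CCACG, chr12:44210160-44210188, minus strand: aacaacagttttCCACGtgcgcgtagggc

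The ERSE (CCAAT and CCACG parted by 9 bases) was found on either strand in 39 of 32851 promoters (0.119%), Hspa5 and Hsp90b1 among them. ERSE-II (ATTGG and CCACG parted by 1 base) occurred on either strand in 12 promoters (0.0365%), Herpud1 among them. The ATF4 site TTGCATCA occurred in 294 promoters (0.895%) and, of the 9 genes, in that of Herpud1. The core TGACGTG occurred in 661 promoters (2.01%) and, of the 9 genes, in that of Hspa5. Dnajb9 held none of these 4 motifs in its window. The CCACG that ends the ERSE and ERSE-II occurs in 7 of the 9 genes and in 32.8% of all promoters. A match describes these letters and is not a measured binding site.

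The tumours were p53fl/fl (16 libraries), p53R172H/fl (19) and p53R245W/fl (17). In p53fl/fl both Trp53 alleles are conditional (floxed), so that they can be deleted, and in the other genotypes 1 allele carries the missense change R172H or R245W and the other is floxed. All groups thus share at least 1 floxed allele. The Cre driver, the age and the site of the tumours were not given in the sources used here, and nothing says whether a sample came from a separate animal beyond its tumour number. Total counts per library ranged from 21596798 to 67223388 (median 51026968.5). Column names put the libraries in 3 sets: 8 of p53fl/fl and 8 of p53R172H/fl in set A, 6 of each genotype in set B, and 2 of p53fl/fl, 5 of p53R172H/fl and 11 of p53R245W/fl in set C. Set B libraries were compared only with those of sets A and C, on log2 levels with set and genotype effects removed. All 18 had a partner of the same genotype there, under another tumour number. In each pair, each library was the closest profile of the other across these sets (Spearman's rho 0.637 to 0.942, against at most 0.525 for the next closest). Their counts still differed beyond counting noise, with a mean chi-square per gene of 236 to 826, so they are not copies of the same library. Libraries matched in this way were taken as 1 tumour unit, which left 34 units (10, 13 and 11), and values over units are given beside those over libraries. Trp53 lay at 8.58 to 19.9 CPM (counts scaled to the TMM library size) in p53fl/fl, at 25.6 to 47.9 in p53R172H/fl and at 21.9 to 59.2 in p53R245W/fl, with no overlap of p53fl/fl with either. The osteoblast genes Col1a1 (median 35939 CPM), Runx2 (192.5) and Sp7 (153.1) marked the tumours as bone-forming, though the lowest library had 0.0540 CPM of Sp7 and the lowest for Bglap, of mature osteoblasts, 0.0268. A further 5 p53R245W/fl libraries, from 3 units, stood apart with Col1a1 of 1043 to 4462 CPM.

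Among the 10 genes the chaperones were the most abundant. Scaled to exon length, the median over libraries was 202.0 CPM per kb for Hspa5, the gene of BiP, the main ER chaperone, and 170.2 for Hsp90b1, the gene of GRP94, the ER member of the HSP90 family. The transcription factor Atf4 followed at 76.8 and Xbp1 at 40.3 CPM per kb. The degradation genes Herpud1, which helps assemble the membrane complex, and Edem1, which helps pick out misfolded glycoproteins, stood at 35.2 and 26.6. Sdf2l1, part of the BiP chaperone cycle, Atf6 and Ddit3 lay at 15.5, 13.3 and 13.2, and Dnajb9, a co-chaperone of BiP also known as ERdj4, was lowest at 6.30. Hspa5 was above 99.4% of the genes with a length and Dnajb9 above 71.7%.

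**Figure D1:**
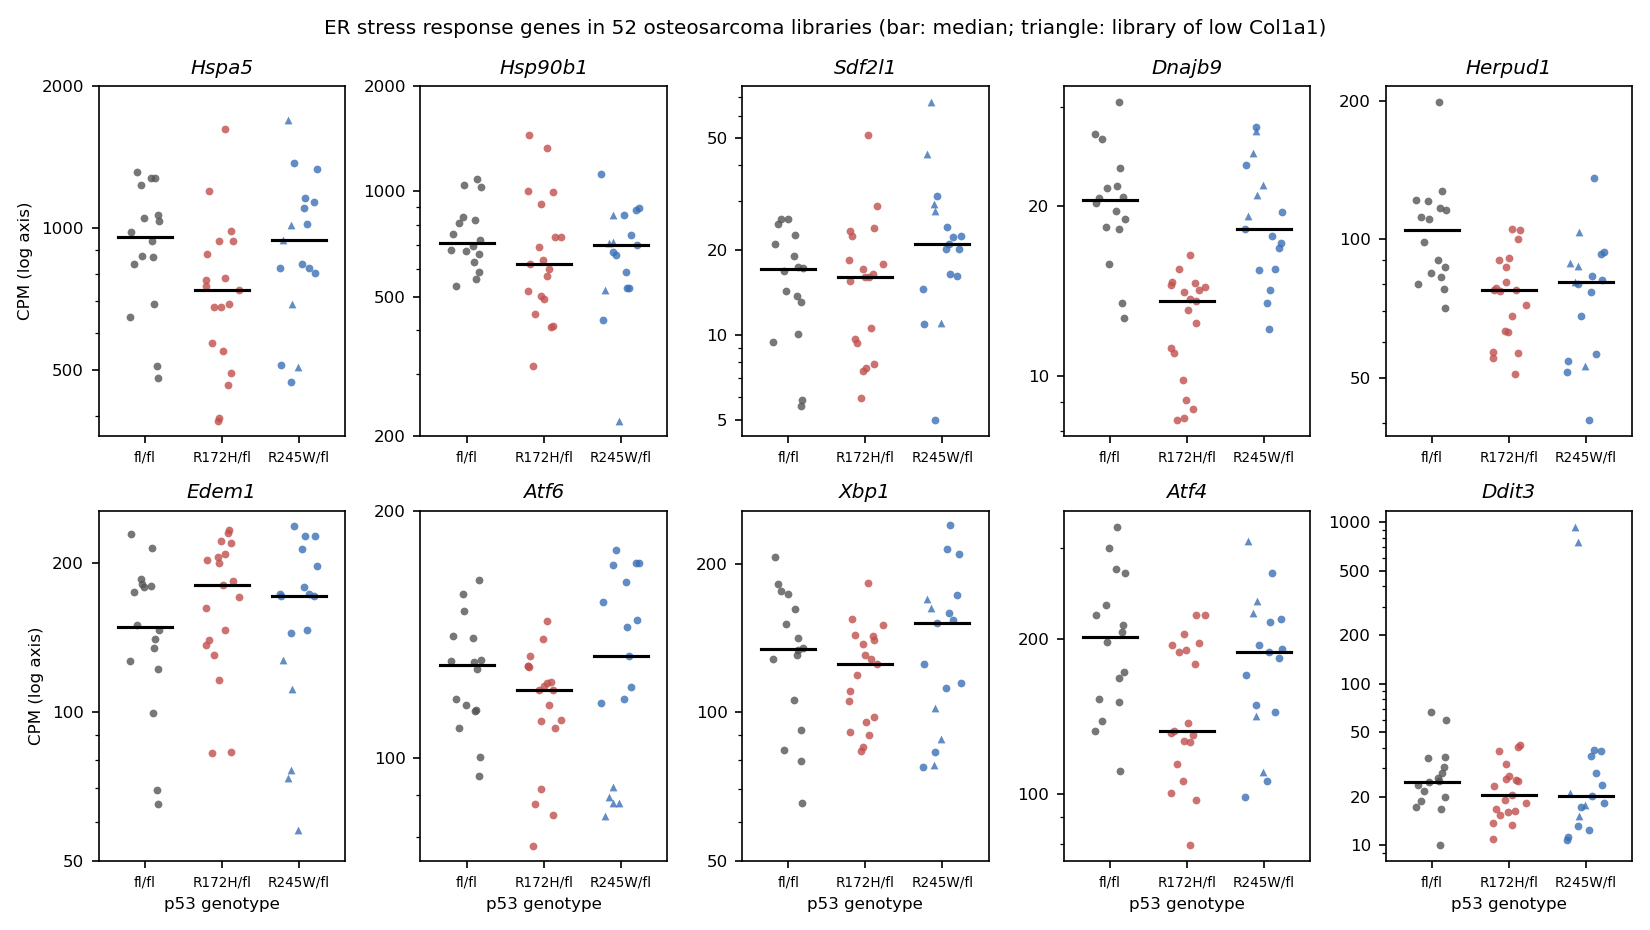
Level of each of the 10 genes in 52 osteosarcoma libraries by p53 genotype, in CPM on a log axis; points are libraries, bars are medians, and triangles are the 5 p53R245W/fl libraries of low Col1a1. Dnajb9 lies lower in p53R172H/fl (8.37 to 16.4 CPM) than in the other genotypes, and 2 p53R245W/fl points of Ddit3, at 750.3 and 936.8 CPM, lie far above all others.

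Dnajb9 (chr12:44205559-44210326, minus strand, GRCm38) is the gene whose pattern prompted the list. In p53fl/fl it ranged from 12.7 to 30.6 CPM with a median of 20.5. In p53R172H/fl it ranged from 8.37 to 16.4 CPM with a median of 13.6, and in p53R245W/fl from 12.1 to 27.6 with a median of 18.2. All 19 p53R172H/fl libraries lay below the p53fl/fl median and 8 lay below the lowest p53fl/fl library, while the ranges still overlapped. By tumour unit, 13 of 13 lay below. The fitted difference of p53R172H/fl from p53fl/fl was −0.71 on the log2 scale (SE 0.12), a level 1.64-fold lower. Within sets the medians were 20.7 against 12.5 CPM in set A, and 20.2 against 13.3 in set B. In set C the 2 p53fl/fl libraries had 15.8 and 20.3 CPM and the 5 p53R172H/fl libraries 8.76 to 15.5. Sets share tumours, so these are not independent repeats.

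Of the other 9 genes most were not called in p53R172H/fl, but a missing call does not show that a gene failed to follow Dnajb9. One of the 9, Herpud1, was called lower and none higher (edgeR quasi-likelihood test, Benjamini-Hochberg adjusted p under 0.05 over 18882 genes). For background, among all genes tested 3.75% were called in this comparison, 2.29% lower and 1.46% higher. Of the 9, 7 had a negative log2 difference, and their median was −0.14, against −0.02 for all genes.

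Herpud1 (chr8:94386438-94395377, plus strand) ranged from 70.9 to 198.7 CPM in p53fl/fl, with a median of 104.7, and from 51.1 to 105.1 in p53R172H/fl, with a median of 77.5. It was 1.38-fold lower in p53R172H/fl, with a log2 difference of −0.47 (SE 0.13, 95% interval −0.72 to −0.21, edgeR adjusted p = 0.0298). Of 19 libraries, 17 lay below the p53fl/fl median and 7 lay below the lowest p53fl/fl library. The direction was the same in each set, with medians of 94.3 and 82.8 CPM in set A, 118.4 and 79.2 in set B and 82.2 (2 libraries) and 72.2 in set C. The call did not survive the counting of matched libraries as 1 tumour: summed by unit the difference was −0.50 with edgeR adjusted p = 0.187, where 0.259% of all genes were called, although 11 of 13 units lay below the p53fl/fl median. With limma and a correlation between matched libraries it was −0.43, adjusted p = 0.306, in a fit that called 0.0106% of all genes.

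The transcription factors did not pass the test. Atf4 (chr15:80255184-80257541, plus strand) came closest, with 111.0 to 330.2 CPM (median 201.9) in p53fl/fl and 79.7 to 222.3 (median 132.2) in p53R172H/fl. Its log2 difference was −0.43 (95% interval −0.73 to −0.12, edgeR adjusted p = 0.0975), with 16 of 19 libraries and 11 of 13 units below the p53fl/fl median. With the library set as a covariate Atf4 was called, at −0.48 and adjusted p = 0.0412. Neither fit that takes account of matched libraries called it: summed by unit it was −0.41 (edgeR adjusted p = 0.370), and in the limma fit with the set −0.42 (0.391). Ddit3 (chr10:127290774-127296288, plus strand) had medians of 24.7 and 20.4 CPM and a difference of −0.30, whose wide interval ran from −1.29 to 0.68. Xbp1 (chr11:5520659-5525893, plus strand) had medians of 134.6 and 125.3 CPM, a difference of −0.14 (−0.44 to 0.16). Atf6 (chr1:170704674-170867771, minus strand) had medians of 129.7 and 121.0 CPM, a difference of −0.13 (−0.34 to 0.07).

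Nor did the other chaperones. Hspa5 (chr2:34771970-34777547, plus strand) ranged from 480.5 to 1318 CPM in p53fl/fl, with a median of 959.0, and from 391.0 to 1622 in p53R172H/fl, with a median of 738.6. Its difference was −0.30 (95% interval −0.64 to 0.04, edgeR adjusted p = 0.333), so the interval holds both no difference and a fall close to that of Dnajb9. In p53R172H/fl 16 of 19 libraries but 8 of 13 units lay below the p53fl/fl median. Hsp90b1 (chr10:86690209-86705509, minus strand) had medians of 710.9 and 620.7 CPM and a difference of −0.11 (−0.44 to 0.23). Sdf2l1 (chr16:17130138-17132383, minus strand) ranged from 5.60 to 25.9 CPM in p53fl/fl and from 5.97 to 51.4 in p53R172H/fl, a difference of 0.06 (−0.45 to 0.57). The degradation gene Edem1 (chr6:108828641-108859356, plus strand) stood on the other side, with medians of 148.4 and 181.2 CPM and a difference of 0.20 (−0.14 to 0.53). Above the p53fl/fl median of Edem1 lay 12 of 19 libraries.

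**Figure D2:**
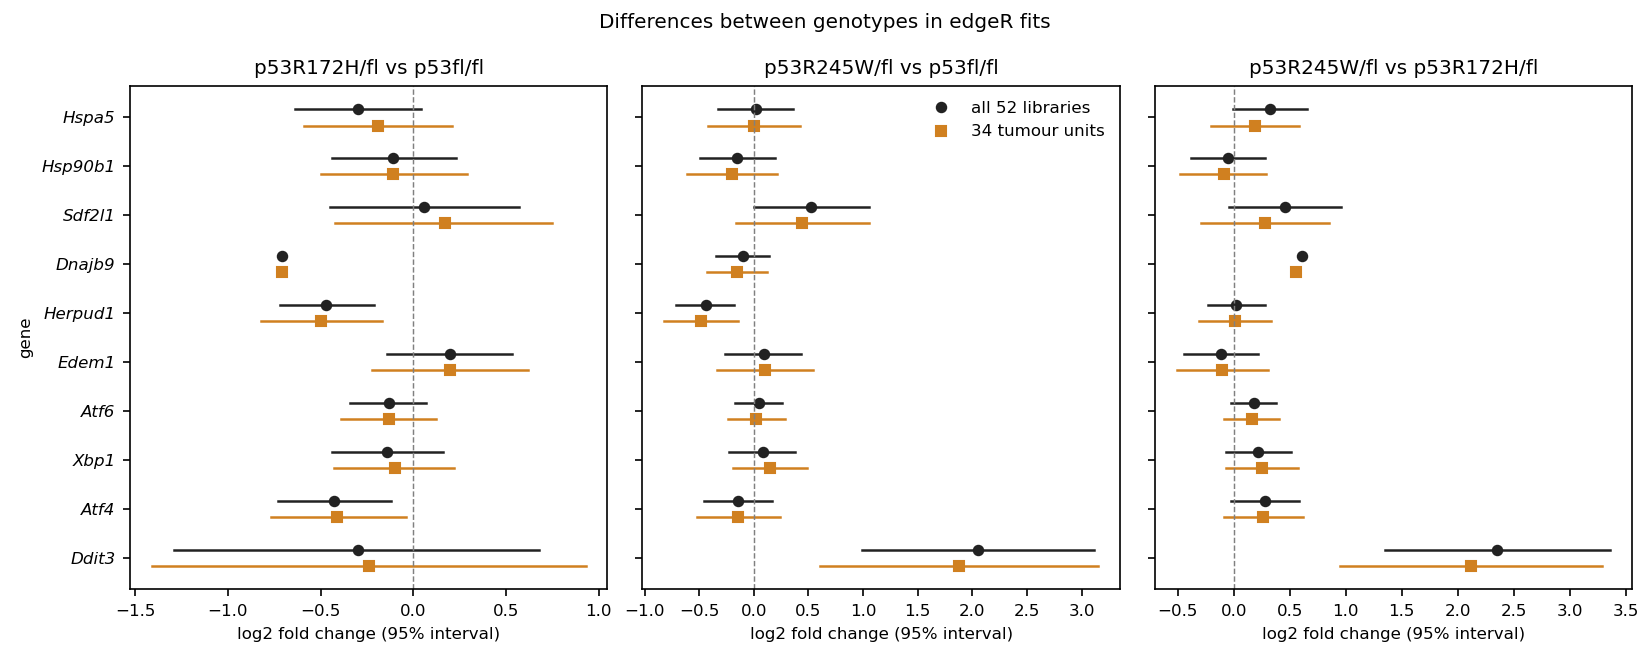
Log2 fold change of each gene (vertical axis) in the 3 genotype comparisons with 95% intervals, from the edgeR fit over 52 libraries and from the fit over 34 tumour units. Herpud1 lies below 0 in both comparisons with p53fl/fl, and the intervals of Ddit3 are the widest.

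Skeletal muscle markers moved with the same comparison: 7 of 9 were called higher in p53R172H/fl than in p53fl/fl, against 1.46% of all genes. By tumour unit Actn3, Atp2a1, Mylpf and Neb, which are among them, did not pass (edgeR adjusted p = 0.173, 0.165, 0.173 and 0.200). Their summed level was 92.6 to 6362 CPM in p53fl/fl, 249.1 to 40817 in p53R172H/fl and 30.1 to 8019 in p53R245W/fl, and no marker was at 0 in a whole group. Their part in the levels of Dnajb9 and Herpud1 was not tested. Plasma and B cell markers, of a cell type with a very active ER, summed to medians of 25.4, 29.9 and 26.3 CPM in the 3 genotypes, and none of the 9 tested was called between p53R172H/fl and p53fl/fl (0 also at an unadjusted p under 0.05). In such bulk samples fewer cells of a type and less RNA per cell cannot be told apart.

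In p53R245W/fl tumours, 2 of the 10 genes were called against p53fl/fl: Herpud1 lower and Ddit3 higher. Among all genes 17.8% were called here, so 2 of 10 is close to the background. This comparison uses the same p53fl/fl libraries as the one above. Those libraries also entered the choice of Dnajb9, so its result here is not independent of that choice. Dnajb9 did not pass the test, with a log2 difference of −0.10 (95% interval −0.35 to 0.14, edgeR adjusted p = 0.597), and 11 of 17 libraries lay below the p53fl/fl median. With limma and voom quality weights it was called lower, at −0.31 and adjusted p = 0.0497.

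Herpud1 ranged from 40.6 to 135.9 CPM in p53R245W/fl with a median of 81.0, and 16 of 17 libraries lay below the p53fl/fl median of 104.7. It was 1.36-fold lower, with a log2 difference of −0.44 (SE 0.13, 95% interval −0.71 to −0.18, edgeR adjusted p = 0.0159). By tumour unit 10 of 11 lay below, and the difference was −0.48 with adjusted p = 0.0634, just short of a call (9.04% of all genes were called over units). With the library set as a covariate it was −0.32 with adjusted p = 0.206, and in the limma fit of matched libraries −0.43 with adjusted p = 0.338 (0.0159% of all genes called). Both mutant genotypes thus had a lower Herpud1 than the same controls in the library fit, and between them the difference was 0.02 (95% interval −0.23 to 0.28).

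The remaining 7 genes did not pass against p53fl/fl. For Hspa5 the p53R245W/fl range was 472.5 to 1698 CPM (median 944.2) and the difference 0.02 (95% interval −0.33 to 0.36). For Hsp90b1 it was 219.9 to 1117 CPM (median 700.6), a difference of −0.15 (−0.49 to 0.19). Sdf2l1 had the largest difference of the 7, with 4.99 to 67.3 CPM (median 21.0) and a value of 0.52 (0.00 to 1.05, edgeR adjusted p = 0.158). Xbp1 ranged from 77.4 to 240.0 CPM (median 151.4), Atf4 from 98.6 to 310.4 (188.7), Atf6 from 84.8 to 179.2 (132.9) and Edem1 from 57.6 to 238.1 (171.8). Their differences were 0.08 (−0.23 to 0.38), −0.14 (−0.46 to 0.17), 0.05 (−0.17 to 0.26) and 0.09 (−0.26 to 0.43).

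The call of Ddit3 came from a single tumour. Its fitted log2 difference from p53fl/fl was 2.05 (SE 0.53, edgeR adjusted p = 0.00549), while the median of p53R245W/fl, 20.3 CPM, was below the 24.7 of p53fl/fl. Libraries 1835 and 408, matched to each other as 1 unit and both of low Col1a1, held 936.8 and 750.3 CPM, against at most 66.8 in the other 50 libraries. Without these 2 libraries, a choice made after seeing the data, the difference was −0.42 with edgeR adjusted p = 0.182, in a fit that still called 17.6% of all genes. DESeq2, which replaced exactly these 2 counts as outliers, gave −0.41 with adjusted p = 0.169. By tumour unit Ddit3 stood at 1.88 with edgeR adjusted p = 0.0530.

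Ddit3 was not alone in that tumour: a block of its neighbours on chromosome 10 was raised with it. Cdk4, a cell cycle kinase, reached 8613 and 4757 CPM in libraries 1835 and 408, against at most 346.4 elsewhere. Os9, a lectin of ER-associated degradation, reached 2225 and 2738 CPM, against at most 236.6. Within 3 Mb of Ddit3, 73 genes had a median of at least 1 CPM, and 29 of them were over 4-fold above the median of the other 50 libraries in both. All 29 lay between the start of Lrig3 (chr10:125966168-126015359) and the end of Naca (chr10:128035575-128048637), a span of 2.08 Mb with 33 such genes. In both libraries each of the 29 except Stac3 exceeded every other library. Stac3 did so in library 408 but not in library 1835. Of the 40 genes outside the span none passed 4-fold in both. Beyond its edges Slc16a7 stood at 10.4 and 7.60 CPM against a median of 21.4, and Ptges3 at 243.6 and 111.3 against 95.9. These edge genes were picked after their values were seen. DNA copy number was not measured, so its part was not tested.

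**Figure D3:**
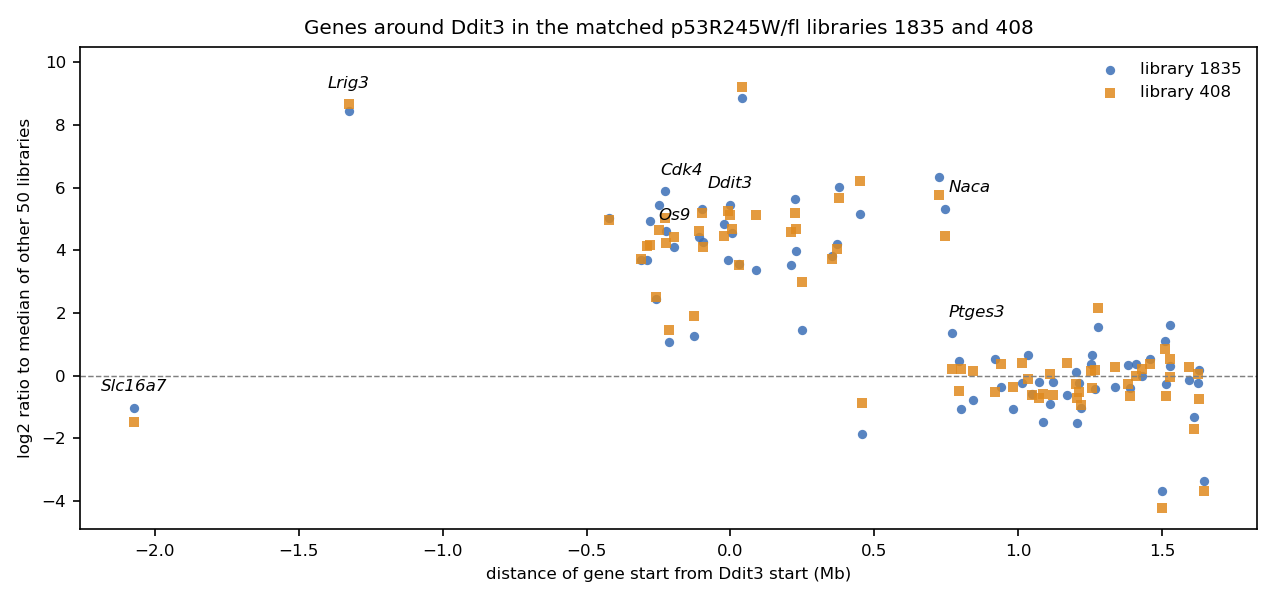
Genes within 3 Mb of Ddit3 in libraries 1835 and 408, as the log2 ratio of their CPM to the median of the other 50 libraries (vertical axis) by distance from the start of Ddit3 in Mb. A run of 29 genes between Lrig3 and Naca, Ddit3 included, lies above 4-fold in both libraries, and genes outside the run do not.

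Genes of the pathway around Ddit3 ranked both high and low in that tumour. Atf4, which acts above Ddit3, was at 224.4 and 141.8 CPM against a median of 181.1 elsewhere. Of 20 targets of ATF4, both libraries were the highest 2 of all 52 for 3. Among them is Ddit3 itself, whose level singled out this tumour. The others were Atf5 (113.0 and 122.4 CPM, median elsewhere 38.8) and Gpt2 (138.9 and 168.6 CPM, median 26.6). At least 1 of the 2 libraries was among the highest 2 for 6 of the 20, Phgdh, Cebpg and Slc7a5 besides those named. For 3 of the 20, Ddit4, Nupr1 and Slc7a11, both libraries were among the lowest 3, with Nupr1 at 12.3 and 15.3 CPM against a median of 108.0. Of 23 ER chaperones and foldases, at least 1 library was among the highest 2 for 8, and both were for 0. Library 1835 had the highest level of all 52 for 6 of them: Hspa5 (1698 CPM), Sdf2l1 (67.3 CPM), Canx, Pdia4, Pdia6 and Creld2. Library 408 ranked 17 for Hspa5, 5 for Sdf2l1 and 3 for Pdia4, at 1017, 29.1 and 497.5 CPM. The share of all genes at such ranks in these libraries was not computed. The counts of targets and chaperones are therefore a description of this tumour and not a result about the pathway. Ddit3 overlaps the opposite-strand gene Mars, itself in the raised span at 1866 and 2050 CPM. Whether reads were counted by strand was not given in the sources used here.

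Between the mutant genotypes, 1 of the 9 genes besides Dnajb9 was called, Ddit3, and that call again rested on the tumour just described. The background was large: 30.9% of all genes were called between p53R245W/fl and p53R172H/fl, 18.2% higher and 12.7% lower. Ddit3 was higher in p53R245W/fl by 2.35 on the log2 scale (95% interval 1.35 to 3.36, edgeR adjusted p = 4.39e-04), and without libraries 1835 and 408 the value was −0.12 with adjusted p = 0.709 (30.4% of all genes called). Over tumour units, where 15.2% of all genes were called, Ddit3 still passed (2.12, edgeR adjusted p = 0.0132), and in the limma fit of matched libraries, where 1.55% were called, it did not (0.36, adjusted p = 0.681). Dnajb9 stood 1.53-fold higher in p53R245W/fl, a log2 difference of 0.61 (SE 0.12). Of 17 p53R245W/fl libraries, 15 lay above the p53R172H/fl median of Dnajb9, 12 lay above its highest library, and 11 of 11 units lay above. Among the chaperones, Hspa5 differed by 0.32 (−0.01 to 0.65, edgeR adjusted p = 0.137), Sdf2l1 by 0.46 (−0.04 to 0.96, p = 0.150) and Hsp90b1 by −0.05 (−0.38 to 0.28). Atf4 differed by 0.28 (−0.02 to 0.58), Xbp1 by 0.22 (−0.07 to 0.51), Atf6 by 0.18 (−0.02 to 0.38) and Edem1 by −0.11 (−0.44 to 0.22), none of which passed.

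Atf6 and Edem1 separated the 5 p53R245W/fl libraries of low Col1a1 from the other 12. Atf6 lay at 84.8 to 92.1 CPM in the 5 and at 116.6 to 179.2 in the 12. Edem1 lay at 57.6 to 127.6 CPM in the 5 and at 144.8 to 238.1 in the 12. For both genes every one of the 5 was below every one of the 12, which no other gene of the list showed. Dnajb9 ranged from 19.2 to 27.2 CPM in the 5, within the 12.1 to 27.6 of the 12, and the medians of Hspa5 were 944.2 and 928.7. The 5 libraries come from 3 tumour units, and these values are a description with no test. Without the 5, Atf6 was called higher in p53R245W/fl than in p53R172H/fl, by 0.36 with edgeR adjusted p = 0.00347, where 22.5% of all genes were called.

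The genes differed in how far tumours of the same genotype spread. The SD between units within a genotype was 0.29 on the log2 scale for Dnajb9 and for Atf6, and 0.53 for Edem1, 0.71 for Sdf2l1 and 1.1 for Ddit3. Between matched libraries of the same unit the SD was 0.10 for Atf6, 0.17 for Edem1 and 0.23 for Dnajb9 and Hspa5. Xbp1 had nearly the same SD within matched libraries (0.38) as between units (0.40). From the lowest to the highest unit Dnajb9 spanned 3.2-fold, Hspa5 3.8-fold, Sdf2l1 8.9-fold and Ddit3 83.0-fold.

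Across tumours the genes did not move as a single block, but some pairs were correlated. Over 34 units, Spearman's rho was positive in 39 of the 45 pairs with a median of 0.23, and 4 pairs passed after adjustment over the 45 (two-sided permutation test, 100000 resamples, smallest possible p 1e-05). By Pearson's r 7 pairs passed: these 4 and Atf4 with Herpud1 (r 0.56, adjusted permutation p = 0.00810), Hspa5 with Xbp1 (r 0.48, 0.0319) and Xbp1 with Edem1 (r 0.45, 0.0469). For the last 3 rho was 0.39, 0.46 and 0.39, and missed the threshold (adjusted permutation p = 0.0900, 0.0620 and 0.0900). Without the 2 farthest units their r was 0.43, 0.42 and 0.40. Within sets A, B and C rho was 0.21, 0.42 and 0.84 for Atf4 with Herpud1, 0.36, 0.47 and 0.61 for Hspa5 with Xbp1, and 0.38, 0.15 and 0.08 for Xbp1 with Edem1. The closest pair was Hspa5 with its partner in the chaperone cycle Sdf2l1, with rho 0.74 (p = 2.0e-05, adjusted 9.0e-04) and Pearson's r 0.80 (permutation p = 1.0e-05, the smallest possible, adjusted 4.5e-04). Within sets A, B and C its rho was 0.66, 0.83 and 0.83, and r without the 2 units farthest from the median of Hspa5 was 0.75.

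The second pair was Xbp1 with Herpud1, at rho 0.57 (permutation p = 5.6e-04, adjusted 0.0126) and r 0.53 (p = 0.00113, adjusted 0.0127). Within the sets rho was 0.66, 0.67 and 0.77, and r without the 2 farthest units was 0.52. Xbp1 with Sdf2l1 had rho 0.53 (permutation p = 0.00185, adjusted 0.0208) and r 0.49 (p = 0.00330, adjusted 0.0297). Its rho within the sets was 0.51, 0.37 and 0.54, and r without the 2 farthest was 0.45. With genotype means removed its rho fell to 0.38 and no longer passed (adjusted permutation p = 0.135).

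Atf6 with Edem1 had rho 0.53 (permutation p = 0.00149, adjusted 0.0208) and r 0.63 (p = 7.0e-05, adjusted 0.00157). Within the sets rho was 0.37, 0.56 and 0.62, and r without the 2 farthest units was 0.56. The 3 units of low Col1a1, low in both genes, are among the points. Hspa5 with the other large chaperone, Hsp90b1, had rho 0.41 and missed the threshold (adjusted permutation p = 0.0900). Dnajb9 correlated with none of the other 9 past the threshold: its rho ran from −0.26 with Edem1 to 0.34 with Herpud1.

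**Figure D4:**
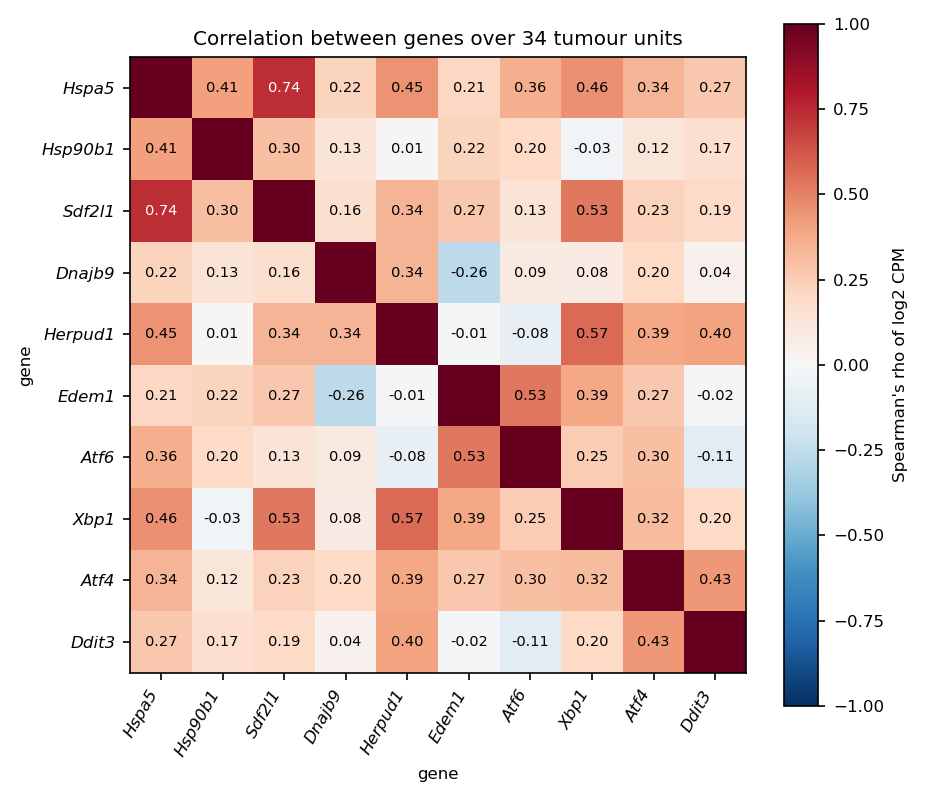
Spearman's rho of log2 CPM between each pair of the 10 genes over 34 tumour units, as a colour scale. Hspa5 with Sdf2l1 has the highest value, 0.74, and the row of Dnajb9 runs from −0.26 to 0.34.

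Genome-wide, Hspa5 had other chaperone genes among its closest neighbours and Dnajb9 did not. Of 14903 genes, those with the highest Spearman's rho to Hspa5 over 34 units were Creld2 (0.77), Siah2 (0.76), Sdf2l1 (0.74), Pdia3 (0.70) and Ncbp2 (0.69). Creld2 encodes an ER stress-inducible protein and Pdia3 a disulfide isomerase of the ER. For Dnajb9 they were Lin7c (0.73), Fbxo33 (0.72), Chm (0.72), Mcl1 (0.71) and Rab5a (0.71), none of which is an ER chaperone. Mcl1 encodes a survival protein of the BCL2 family, and Chm and Rab5a act in vesicle traffic. These are descriptions over the highest of many values.

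For several genes, the closest genes lay on the same chromosome. Of the 50 genes most alike to Atf4, 33 (66.0%) were on its chromosome 15, which holds 3.86% of the genes compared, and 19 lay within 5 Mb. For Herpud1 32 of 50 (64.0%) were on chromosome 8, which holds 5.25%, with 0 within 5 Mb. For Hsp90b1 29 of 50 (58.0%) were on chromosome 10, which holds 4.58%, with 11 within 5 Mb. Hspa5 had 14 of 50 on a chromosome with 7.61% of the genes, Xbp1 12 (7.99%), Dnajb9 7 (3.37%) and Atf6 5 (6.80%). With genotype means removed the counts were 38 for Atf4, 26 for Herpud1, 28 for Hsp90b1, 17 for Dnajb9 and 9 for Ddit3, which had 5 before. This count was added after values were seen, and the part of chromosome copy number in it was not tested.

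**Figure D5:**
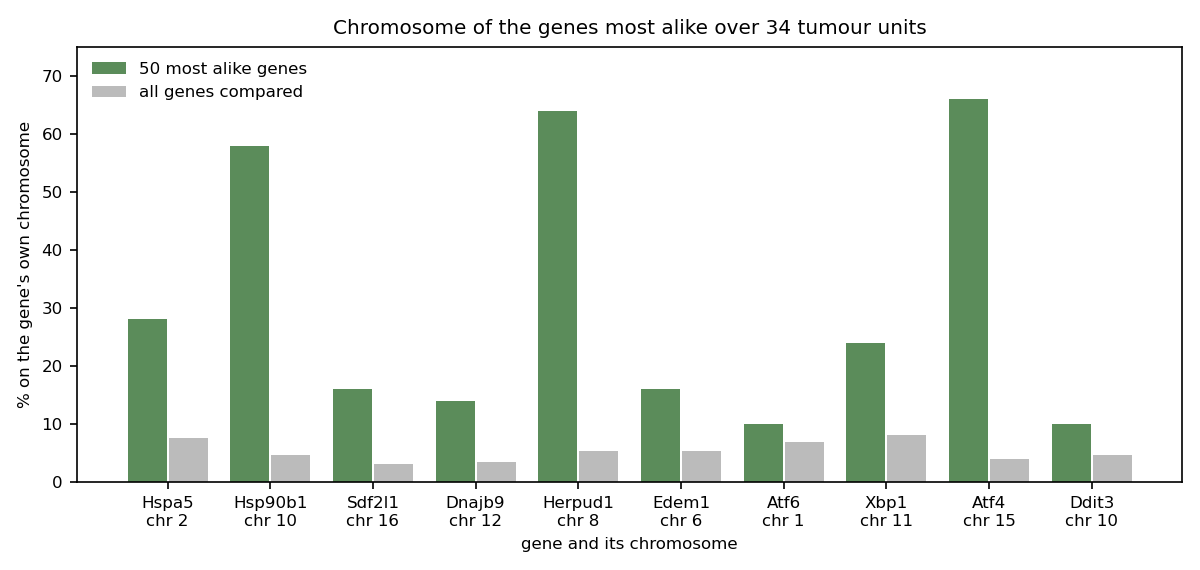
Percent of the 50 genes most alike to each gene over 34 tumour units that lie on the gene's own chromosome, beside the percent of all compared genes on that chromosome. Atf4 (66.0%), Herpud1 (64.0%) and Hsp90b1 (58.0%) stand highest.

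Genes of chromosome 8 lay slightly to the side of Herpud1. In p53R172H/fl against p53fl/fl their median log2 difference was −0.07, with 59.1% below 0, against −0.02 and 52.3% on other chromosomes. In p53R245W/fl against p53fl/fl it was −0.07, with 57.4% below 0, against 0.04 and 46.2% elsewhere. The 84 genes within 5 Mb of Herpud1 had medians of −0.07 and −0.18 in these comparisons, where Herpud1 had −0.47 and −0.44. For Dnajb9 the genes of chromosome 12 had a median of −0.07 in p53R172H/fl against p53fl/fl, and the 16 genes within 5 Mb had −0.20. Summed by unit these were −0.02 and −0.11. In p53R245W/fl against p53R172H/fl, which shares the p53R172H/fl libraries, the same 16 genes had a median of 0.49, beside 0.61 for Dnajb9, 0.16 for chromosome 12 and 0.07 for other chromosomes. Summed by unit the 16 had 0.35. The part of copy number in these values was not tested.

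The wider ER pathway in p53R172H/fl, in lists chosen with earlier results of these data known, showed few calls against p53fl/fl. None of 14 sensors and transcription factors was called (edgeR; 1 at an unadjusted p under 0.05), nor any of 20 targets of ATF4 (0 unadjusted), with values of 0.45 for Vldlr and −0.49 for Atf5. Among the 19 ER chaperones and foldases outside the 10 genes, 1 was called, Calr, the lectin chaperone calreticulin, lower at −0.59 (edgeR adjusted p = 0.0277), and their median was −0.03. By tumour unit Calr did not pass (p = 0.146). Herpud1 was the single call among 16 genes of ER-associated degradation. Of 22 genes of the translocon and glycosylation 4 were called lower, against 2.29% of all genes: Sec62 (−0.52) and Spcs3 (−0.52), which act at the entry of proteins into the ER, Dad1 (−0.54), a subunit of oligosaccharyltransferase, and Ssr3 (−0.41), of the translocon-associated complex. None of these 4 passed by tumour unit. Of 19 genes of ER to Golgi transport none was called (5 unadjusted), with −0.59 for Kdelr2 and −0.45 for Sec24d, and 17 of 19 values were below 0. The cytosolic heat shock genes, another folding response, had 13 of 13 values below 0 and a median of −0.44, with 1 called, Hsph1, at −0.91 (edgeR adjusted p = 0.0335, by unit 0.291).

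In p53R245W/fl against p53fl/fl the calls were spread over both directions, against 17.8% of all genes called. Ern1, the gene of IRE1, was lower, at −0.45 (edgeR adjusted p = 0.00971, by unit 0.0552). None of 23 ER chaperones was called (1 at an unadjusted p under 0.05), and the list's median was 0.08, with 0.31 for Dnajc3. In ER-associated degradation Syvn1, the ubiquitin ligase that works with Herpud1, was lower, at −0.70 (adjusted p = 0.00506, by unit 0.0366). Derl3 was lower, at −2.35 (0.0339, by unit 0.0641), but its level was very low, with medians of 0.186 CPM in p53fl/fl and 0.0836 in p53R245W/fl. Without libraries 1835 and 408 Derl3 stood at −2.18 and missed the threshold (0.0543). Os9 was higher by 1.45 (0.00889) but −0.20 (0.346) without libraries 1835 and 408. Of 20 targets of ATF4, Gpt2 was called beside Ddit3, at 0.80 (edgeR adjusted p = 0.0162), and without those libraries it stood at 0.35 (0.201). Sec61b (0.70) and Spcs1 (0.58), of the translocon list, were called higher, also by unit (edgeR adjusted p = 0.0445 and 0.0276). Lman1 (−0.51) and Sec24a (−0.52), of the transport list, were called lower, but not by unit (edgeR adjusted p = 0.277 and 0.172), and Lman1 missed the threshold without libraries 1835 and 408 (0.0555). Of 13 heat shock genes Bag3 (−0.64), Hsph1 (−0.90) and Hspa1a (−1.82) were called lower, with edgeR adjusted p by unit of 0.0122, 0.0608 and 0.146.

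Between p53R245W/fl and p53R172H/fl, 4 of the 19 ER chaperones outside the 10 genes were called higher and 0 lower, against 18.2% higher and 12.7% lower of all genes. They were Dnajc10 (0.43), Dnajc3 (0.55), Pdia3 (0.37) and Calr, and by tumour unit none of the 4 passed. Markers of other cell types moved in the same comparison: of 9 muscle markers 4 were called lower (Ttn −2.11, Atp2a1 −1.82, Myh4 −1.94 and Neb −1.72), of 8 macrophage markers 2 higher (Mrc1 1.45 and Cd14 0.79) and of 11 osteoblast markers 1 lower (Dmp1 −1.77). By tumour unit none of these markers passed (edgeR adjusted p from 0.0702 for Ttn to 0.235 for Dmp1). The part of these cell types in the values was not tested. Syvn1 was lower in p53R245W/fl, at −1.02 (edgeR adjusted p = 3.39e-05, by unit 0.00444), and so was Ern1, at −0.59 (2.62e-04, by unit 0.0190), so the gene of the IRE1 sensor and the ligase of the degradation complex were called in both fits. Creb3l1, an ER-bound factor of bone matrix secretion, was lower, at −0.90 (edgeR adjusted p = 0.0200, by unit 0.0824). Among the degradation genes called higher were Ube2j1 (0.54) and Os9 (1.58), with Os9 at −0.07 without libraries 1835 and 408. Among 20 targets of ATF4, Cth (2.16), Gpt2 (1.09) and Phgdh (0.82) were called higher beside Ddit3, and of these 3 Gpt2 passed by unit. The level of Cth was very low, with medians of 0.534 CPM in p53R172H/fl and 1.33 in p53R245W/fl. Without the 5 libraries of low Col1a1, Cth, Gpt2 and Phgdh all missed the threshold (edgeR adjusted p = 0.286, 0.0961 and 0.0512). In the translocon and glycosylation list 5 of 22 were called higher, a share near the 18.2% of all genes, among them Spcs3 (0.64), Spcs1 (0.90), Sec62 (0.46) and Sec61g (1.08). In transport Sec23b (0.34) and Sar1b (0.46) were higher and Sec24a (−0.48) lower of 19. Of 13 heat shock genes Hspe1 (0.70) and Dnaja1 (0.48) were higher and Bag3 (−0.44) lower. In the limma fit of matched libraries with the set, no gene of the ER and heat shock lists was called in any of the 3 comparisons (at most 5 of a list at an unadjusted p under 0.05). The osteoblast marker Dmp1 was called in that fit between p53R245W/fl and p53R172H/fl (limma adjusted p = 0.0325).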

How the data were processed

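Stranded mRNA libraries of flash-frozen primary mouse osteosarcomas were sequenced as paired reads, with RNA isolated by a Zymo column kit, per the labels' protocols. The authors deposited raw read counts per gene for 52 libraries, with no normalization. STAR and GRCm38 are named per the submitters' processing notes; versions, the annotation release and the program that made the counts were not given in the sources used here. Identifiers were joined to GENCODE M21, which gave 20668 of 20730 a symbol.

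Groups were the labelled genotypes. edgeR 4.0.16 (R 4.3.3) fitted all 52 libraries with TMM, filterByExpr (minimum count 10) and robust quasi-likelihood F tests, with Benjamini-Hochberg adjustment over 18882 genes. CPM was scaled by TMM, and 2 counts were added as a prior for log2 CPM. Further fits summed the counts of matched libraries (34 units), or used limma 3.58.1 (voom) with matched libraries as correlated and the library set as a covariate. DESeq2 1.42.0, other filters and scaling, single sets and left-out libraries were alternatives. The script for the tests was tested on simulated data.

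The genes, lists and tests were chosen with earlier results of these data known. All 10 genes are named, from each other list the called genes (at most 4 per direction, smallest adjusted p first) or else the 2 of smallest p, Trp53, Col1a1, Cdk4, Os9, and the 5 genes most alike to Dnajb9 and to Hspa5. Others are named after their values were seen: genes at the edges of the Ddit3 span, Stac3, Mars, targets of ATF4 and chaperones in tumour 1835, called cell type markers, and Calr in the last comparison. A called gene of the lists is not reported here. Depth was 21596798 to 67223388 counts per library. The labels do not say that libraries are separate animals, so p-values measure the spread between these libraries.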

Additional observations from a re-analysis of the deposited data

How the results depend on the processing

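The alternatives for the fold changes numbered 430. Of the 9 genes tested in p53R172H/fl against p53fl/fl, 1 was called, 2 with the library set as a covariate (Atf4 and Herpud1), and 0 in each of 6 alternatives: sums of matched libraries (2 at an unadjusted p under 0.05), the limma fit of matched libraries (2), without set B (2), and set A (0), set B (3) or set C (0) alone. Of 10 genes in p53R245W/fl against p53fl/fl, 2 were called, 1 with DESeq2, without low Col1a1 or without tumour 1835 (Herpud1), 1 with the set as a covariate or without set B (Ddit3), and 0 with sums of matched libraries (2 unadjusted), in the limma fit of matched libraries (1), and in set B (2) or set C (0) alone. With voom quality weights the 2 called were Dnajb9 and Herpud1. Of 9 genes in p53R245W/fl against p53R172H/fl, 1 was called (Ddit3), 1 with voom quality weights or without low Col1a1 but then Atf6, and 0 with DESeq2 (0 unadjusted), in the limma fit of matched libraries (0), without tumour 1835 (1), and in set B (3) or set C (0) alone. Leaving out tumour 1835 was added after seeing the data; leaving out the libraries of low Col1a1 removes that tumour too. Fewer samples enter the single sets.

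Over all genes, 708, 3365 and 5829 were called in the 3 comparisons, 51, 1783 and 3000 over sums of matched libraries, and 2, 3 and 293 in the limma fit of matched libraries. In p53R172H/fl against p53fl/fl DESeq2 called 1174, 595 higher and 579 lower, against 276 higher and 432 lower.

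Some log2 differences changed sign, and the cause was not tested. In p53R172H/fl against p53fl/fl, set A alone gave 0.01 for Hspa5, 0.05 for Xbp1, 0.13 for Ddit3 and 0.02 for Hsp90b1. Sdf2l1 was −0.01 with voom quality weights, −0.03 with the set as a covariate, −0.42 in set B and −0.57 in set C, and Edem1 was −0.04 in set C. In p53R245W/fl against p53fl/fl, Dnajb9 was 0.09 in set B. Hspa5 was −0.02 with quality weights, −0.09 in the fit of matched libraries, −0.07 without tumour 1835, −0.02 in set B and −0.06 in set C. Xbp1 was −0.06 with the set as a covariate, −0.07 in the fit of matched libraries, −0.17 in set B and −0.23 in set C. Ddit3 was −0.41 with DESeq2, −0.12 with quality weights, −0.36 without low Col1a1 and −0.42 without tumour 1835. Atf6 was −0.05 in the fit of matched libraries, and Edem1 was −0.05 there, −0.05 with the set as a covariate and −0.29 in set C. In p53R245W/fl against p53R172H/fl, Ddit3 was −0.12 with DESeq2, −0.06 without low Col1a1 and −0.12 without tumour 1835. Herpud1 was −0.01 with a minimum count of 50, with quality weights and without low Col1a1, and −0.02 without set B. Hsp90b1 was 0.02 without low Col1a1 and 0.06 in set B, and Edem1 was 0.03 with quality weights and 0.13 without low Col1a1.

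Of 45 correlations 4 were called over units, 14 over libraries (which count matched tumours more than once), 3 with genotype means removed, 0 in set A, 1 in set B and 5 in set C. No paired analysis was possible because the groups share no replicate numbers. Genotypes can be compared within a set, but within set A the prefix of the column names goes with the genotype, and the 2 cannot be told apart. Within set C the L code of the column names nearly goes with the genotype. All p53fl/fl and p53R172H/fl libraries there carry the same code, and of p53R245W/fl only library 1580 carries it. Set A holds no p53R245W/fl, and set C holds 2 p53fl/fl libraries.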
